A study of Caenorhabditis elegans with 12 samples.

Results

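Sixth-day adults of 2 strains of Caenorhabditis elegans were compared: 3 libraries of fog-2(lf) animals (strain JK574, which carries the q71 allele in the N2 background) against 3 libraries of the wild-type strain N2. These are 6 of the 12 libraries of the series, taken by the strain and stage on their labels, and the other 6 hold first-day adults of both genotypes, collected before embryos could be seen. By the sixth day the wild-type hermaphrodites have laid their eggs and used up their own sperm, while fog-2(lf) XX animals made none. Neither group should then hold self sperm, and the question put to the data was what still differed. All animals were grown on OP50 bacteria, and each library was made from polyadenylated RNA of many whole synchronized worms pooled together, with single-end reads. The study's methods call the 3 libraries of a group biological replicates. Genotype and strain coincide in all libraries, so an effect of fog-2 and any other difference between the strains cannot be told apart.

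XX animals of this species make sperm for a short time as larvae and then switch to oocytes for life. FOG-2, an F-box protein, works with the RNA-binding protein GLD-1 to hold back translation of tra-2 in the larval germline, which permits the sperm phase, and animals without it develop as females that need males to reproduce. Sperm proteins also act as signals, since major sperm protein prompts oocyte maturation, ovulation and contraction of the gonadal sheath, so that oocytes wait in the gonad arm when sperm are missing.

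Totals of estimated counts ran from 27195796 to 37749220 in the fog-2(lf) libraries and from 27205950 to 28317413 in the wild-type libraries. Replicates of one group differed by more than sampling noise, with a chi-square of at least 18.1 per degree of freedom in the 6 pairs. The genotypes stood apart on the first principal component of the 6 libraries (57.6% of the variance), at -56.7, -42.7 and -23.9 for fog-2(lf) and between 39.5 and 42.4 for wild type. First-day wild-type replicate 2, which enters the shared estimate of spread, stood apart: its major sperm protein genes summed to 238.9 CPM, against 1.37 to 18.6 CPM in the other first-day libraries. Without it the sixth-day calls given below numbered 4221 rather than 2967, the first-day calls 3672 rather than 2671 and the interaction calls 3321 rather than 2233. Levels below are counts per 1000000 counts of the library (CPM) after trimmed-mean scaling, and fold changes are fog-2(lf) over wild type. Calls were made at an adjusted p (Benjamini-Hochberg) under 0.1 in edgeR's quasi-likelihood test, fitted over all 12 libraries and 14561 genes, and every adjusted p below comes from that fit. The called genes given with their values here kept their sixth-day call when any 1 of the 12 libraries was left out. Where one did not, the highest adjusted p of those fits is given. First-day and interaction calls of single genes were not checked in this way.

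The mutated gene itself was checked first. fog-2 (V:20199254-20200648, plus strand) was at 3.57, 3.39 and 3.2 CPM in fog-2(lf) and at 53.5, 54.7 and 58.5 CPM in wild type. The log2 fold change was -4.04 (SE 0.12, adjusted p = 1.92e-08), a 16.4-fold difference, and the groups were far apart in every library. Both annotated isoforms fell, by 4.51 and 3.76 on the log2 scale. ftr-1, the neighbouring paralogue, was at 44.5, 41.2 and 46 CPM in fog-2(lf) and at 37.2, 36.8 and 36.9 CPM in wild type (log2 fold change 0.25, adjusted p = 0.0692). The ftr-1 libraries did not overlap, but the call was lost in fits that left out a sixth-day library (adjusted p up to 0.186) and under scaling to library totals (0.511). As close paralogues fog-2 and ftr-1 could share reads under pseudoalignment, so both levels are uncertain to that extent. The 113 tested genes that start within 0.5 Mb of fog-2 held 6 higher and 18 lower genes. In total 21.2% were called, close to the 20.4% of all genes. The calls there leaned to lower genes, whereas over all genes 9.86% were higher and 10.5% lower. Whether that lean goes beyond chance was not tested.

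**Figure D1:**
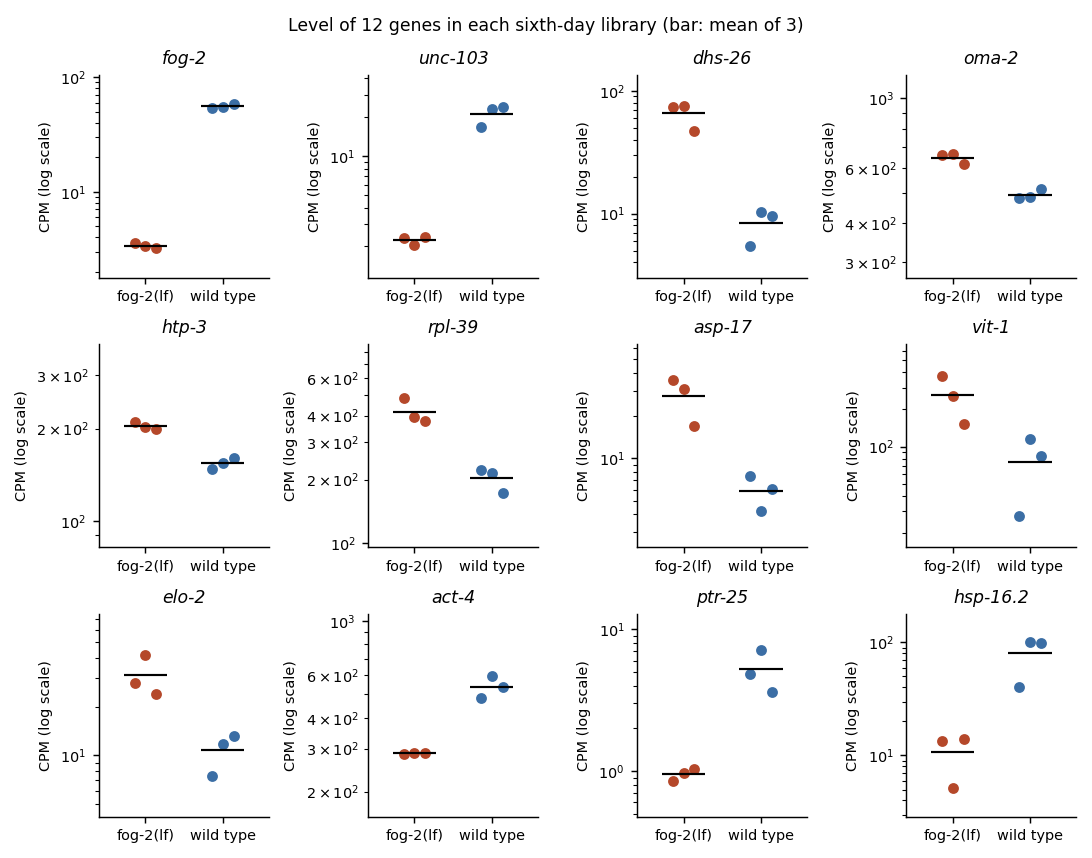
Levels of 12 genes in CPM on log axes, with 1 point per sixth-day library (fog-2(lf) left, wild type right) and a bar at the mean of 3. fog-2 and unc-103 sat far lower in fog-2(lf) and dhs-26 far higher. The libraries of the 2 genotypes did not overlap in any of the 12 panels, which the naming rule required for some of these genes.

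In sixth-day adults 2967 of 14561 genes differed between the genotypes, 20.4% of those tested. Of these, 1436 were higher in fog-2(lf) (9.86%) and 1531 were lower (10.5%). The higher genes were abundant genes with small changes, with a median level of 85.4 CPM and a median log2 fold change of 0.38. The lower genes were scarce genes with large changes, with a median level of 2.85 CPM and a median log2 fold change of -1.26. At least a 2-fold difference was reached by 222 higher and 985 lower genes. Lack of overlap between the sixth-day libraries was common. All 3 fog-2(lf) libraries lay above all 3 wild-type ones in 21.3% of tested genes and below them in 22.8%. Among genes averaging 100 CPM or more, 613 of 2627 were higher (23.3%) and 47 lower (1.79%). Among genes under 1 CPM, 43 of 3128 were higher (1.37%) and 414 lower (13.2%). The gene lists below are set beside the shares of all genes and were not matched for level. The split depended on the scaling: with library totals alone 454 genes were called higher and 2326 lower, and the median over all genes was -0.17 against -0.02 with trimmed-mean scaling. On TPM values (limma, offset 0.5) the split was 380 higher and 3565 lower, with a median of -0.21.

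The number of calls also rested on single libraries. It was 1107 without fog-2(lf) replicate 1, 1518 without replicate 2 and 2314 without replicate 3. It was 1803, 1232 and 1839 without wild-type replicates 1, 2 and 3. Levels followed transcript length differently in some libraries: of 5 equal classes of length, the shortest stood above the longest by 0.27 (log2) in fog-2(lf) replicate 1 and by 0.17 in wild-type replicate 1, against -0.09 to 0.03 in the other sixth-day libraries. A fit with a length offset, added after the data were seen, called 3456 genes.

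The X chromosome, which is largely silent in the germline and active in the soma, carried an unequal share of the lower genes. Of 2064 X-linked genes tested, 71 were higher in fog-2(lf) (3.44%) and 395 were lower (19.1%). Of 12370 autosomal genes, 1355 were higher (11%) and 1119 lower (9.05%). The median log2 fold change was -0.26 on X and 0.01 on the autosomes. The X median sat at -0.25, -0.18 and -0.21 in the fog-2(lf) libraries and at 0.04, 0.02 and -0.06 in the wild-type libraries, relative to the wild-type mean, without overlap. The excess of lower calls over the autosomes was present at every level of expression. It ran from 18.3% of X genes against 12% of autosomal genes under 1 CPM to 12% against 1.49% at 100 CPM or more. That top class held only 75 X genes, of which 9 were lower and more, 13 (17.3%), were higher. Only 41 of the 395 belonged to any gene list described below. First-day X-linked genes were 204 higher and 286 lower, with a median of 0.02, on a day when 7.73% of all genes were higher and 10.6% lower (18.3% in all).

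The X-linked count fell to 147 without fog-2(lf) replicate 1, 211 without fog-2(lf) replicate 2, 247 and 175 without wild-type replicates 1 and 2, and 243 without wild-type replicate 3. It was 592 with library totals alone. The mitochondrial genome differed the other way: 6 of its 12 tested genes were higher and none lower, with a median of 0.54. The count was 1, 3 and 11 without fog-2(lf) replicates 1, 2 and 3, it was 4 without wild-type replicate 3, and 3 with library totals. In these whole-worm samples fewer cells of a type and less RNA per cell cannot be told apart.

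**Figure D2:**
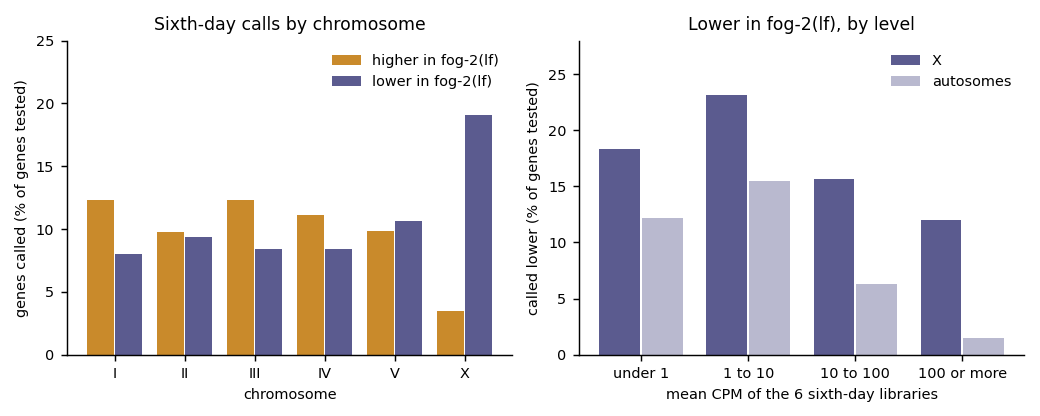
Left, percent of tested genes called higher or lower in sixth-day fog-2(lf) on each nuclear chromosome. Right, percent called lower on X and on the autosomes by mean CPM: X is above the autosomes in each class, with 23.2% against 15.5% at 1 to 10 CPM.

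The first-day libraries show which sixth-day differences were already there when wild type still had sperm; the 2 comparisons share no library. Of the 2967 sixth-day genes, 434 were also called on the first day in the same direction (209 higher, 225 lower), which is 15% of the sixth-day list and 16% of the first-day list. In either direction 21.1% of the sixth-day genes were called on the first day, near the 18.3% of all genes tested, and over all 14561 genes the fold changes of the 2 days had a Pearson r of 0.06 and a Spearman rho of 0.057. These are values across genes, which are not independent replicates. A further 191 were called on both days in opposite directions. Of those, 80 were higher on the sixth day and lower on the first, and 111 were lower on the sixth day and higher on the first. The genotype difference itself changed between the days (interaction) in 2233 genes, 15.3% of those tested, and 1167 of the sixth-day genes were among them. Of the 434 genes, 15 had a called interaction. The 434 became 166 and 178 without sixth-day fog-2(lf) replicates 1 and 2, and 250, 155 and 260 without sixth-day wild-type replicates 1, 2 and 3. Leaving out first-day libraries gave 207 to 810, the highest without wild-type replicate 2.

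Genes of at least 10 CPM that were lower on both days were ranked by the smaller of their 2 fold changes, and unc-103, which encodes an ERG-type potassium channel of muscle and neurons, came next after fog-2. unc-103 (III:4115385-4147278) was at 2.32, 2.06 and 2.38 CPM in fog-2(lf) and at 16.7, 23.1 and 23.8 CPM in wild type, a 9.39-fold difference (log2 fold change -3.23, SE 0.18, adjusted p = 8.52e-06). Its first-day log2 fold change was -2.58. The difference lay in isoforms: C30D11.1a had 4, 8 and 7 estimated counts in fog-2(lf) and 156, 250 and 238 in wild type, while C30D11.1f had 53, 65 and 81 against 364, 427 and 482. F13H8.8 fell too, with a log2 fold change of -1.77 on the sixth day and -2.76 on the first.

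dhs-26, a short-chain dehydrogenase (X:3360722-3362493), had the largest rise among genes of at least 10 CPM whose libraries did not overlap. It was at 73.9, 75.4 and 47.2 CPM in fog-2(lf) and at 5.41, 10.3 and 9.51 CPM in wild type, with a log2 fold change of 2.96 (SE 0.33, adjusted p = 0.00165) on the sixth day and 3.35 on the first. C30G12.2 was at 128.5, 171.0 and 94.5 CPM in fog-2(lf) and at 27.9, 25.5 and 19.5 CPM in wild type (log2 fold change 2.43, adjusted p = 0.00187, and 2.32 on the first day). Both were several-fold above wild type in all 3 libraries on either day. Y54F10AM.11 rose 5.26-fold, ugt-66, a UDP-glucuronosyltransferase, 3.87-fold, and fbxa-107, a member of the F-box family, 2.46-fold, each also called higher on the first day. acox-1.2, an acyl-CoA oxidase that shortens the side chains of ascaroside pheromones, averaged 11.3 ± 1.77 CPM in fog-2(lf) and 3.8 ± 0.601 CPM in wild type (SD, n = 3 each; adjusted p = 0.0118). dhs-26 and Y54F10AM.11 overlap ZK816.1 and nhr-239 on the other strand, and reads of such pairs could not be told apart without strand.

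Among genes that turned round, elo-1, a fatty acid elongase of the polyunsaturated pathway, was at 206.9, 210.6 and 193.7 CPM in sixth-day fog-2(lf) and at 154.8, 153.4 and 161.2 CPM in sixth-day wild type (log2 fold change 0.38, adjusted p = 0.00619). On the first day elo-1 was lower in fog-2(lf), by -0.38 on the log2 scale, and the change between the days was 0.76 (adjusted p = 0.00577). ugt-25 was 2.42-fold higher in sixth-day fog-2(lf) (log2 1.27, adjusted p = 0.0207) against a log2 fold change of -1.09 on the first day. In the opposite sense, alg-2, an Argonaute of the microRNA pathway, averaged 55.6 ± 3.8 CPM in sixth-day fog-2(lf) and 76.7 ± 7.27 CPM in sixth-day wild type (SD, n = 3 each), without overlap. Its log2 fold change was -0.46 (adjusted p = 0.0161) on the sixth day and 0.34 on the first. flp-25, which encodes FMRFamide-like neuropeptides, stayed under 1 CPM in sixth-day fog-2(lf) and averaged 3.2 ± 0.512 CPM in sixth-day wild type (log2 fold change -1.98, adjusted p = 0.00496). Its first-day log2 fold change was 1.59, at low means of 0.754 CPM in fog-2(lf) and 0.255 CPM in wild type.

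**Figure D3:**
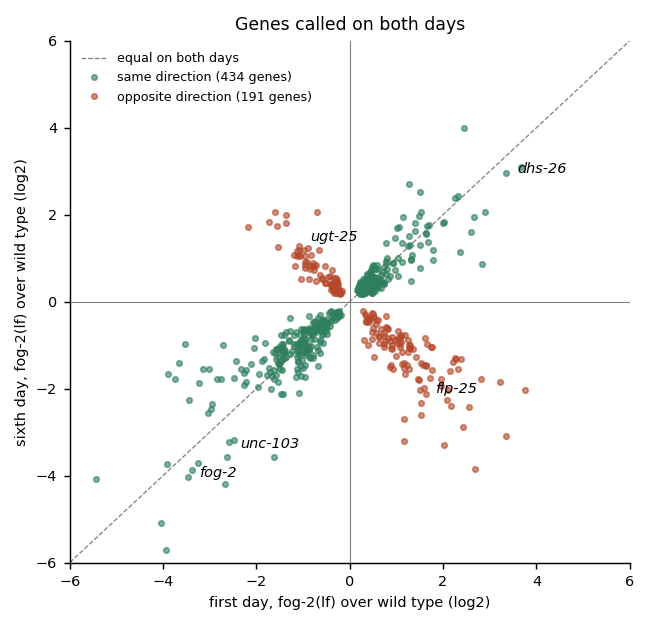
Log2 fold change of fog-2(lf) over wild type on the first day (horizontal) and the sixth day (vertical) for the 625 genes called on both days. The 434 genes of same direction lie in the upper right and lower left, fog-2 and unc-103 among them, and the 191 of opposite direction in the other corners; 2 genes lie outside the axes, which end at 6.

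Germline genes were called slightly higher in sixth-day fog-2(lf), by small differences that rested on the scaling. Of 46 tested genes for meiotic pairing and recombination, 20 were higher and none lower (median 0.22, against -0.02 over all genes). Of 45 genes for DNA replication and the cell cycle, 19 were higher and none lower (median 0.20). On the first day the meiosis list held 1 higher and 2 lower genes, and the replication list 11 higher and none lower. With library totals alone each of the 2 lists had 2 higher genes and none lower on the sixth day. On TPM values the meiosis list had 2 higher and none lower and the replication list 1 higher and 2 lower, with medians of 0.00 and -0.01, beside -0.21 over all genes.

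htp-3, which encodes a HORMA-domain protein of the meiotic chromosome axis, was at 209.9, 202.7 and 199.5 CPM in fog-2(lf) and at 147.5, 154.9 and 160.4 CPM in wild type (log2 fold change 0.40, SE 0.07, adjusted p = 0.0101). All 3 mutant libraries lay above all 3 wild-type ones. brc-2, the BRCA2 orthologue that loads the RAD-51 recombinase, rose 1.38-fold, and orc-5, a subunit of the origin recognition complex, 1.34-fold. cdc-6, an origin licensing factor, rose 1.26-fold, as did air-2, the Aurora B kinase, but with library totals neither was called (adjusted p = 0.17 and 0.207). The meiosis count was 5, 8 and 13 without fog-2(lf) replicates 1, 2 and 3 and 7, 3 and 10 without wild-type replicates 1, 2 and 3; the replication count was 8 and 11 without fog-2(lf) replicates 1 and 2 and 10 and 6 without wild-type replicates 1 and 2.

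Genes of the oocyte and its eggshell went both ways, with 14 of 38 higher and 4 lower, perm-2, perm-4, chst-1 and pqn-74 (median 0.22), against 13 and 3 on the first day. The calls of perm-2 and chst-1 were lost with some libraries left out (adjusted p up to 0.175 and 0.263). oma-2, a zinc finger protein needed for oocyte maturation, was at 660.5, 662.4 and 619.2 CPM in fog-2(lf) and at 482.0, 484.2 and 512.8 CPM in wild type (log2 fold change 0.39, SE 0.07, adjusted p = 0.0087; 0.49 on the first day). puf-5, a Pumilio-family repressor of oocyte messages, averaged 1217.8 ± 53.1 CPM in fog-2(lf) and 915.6 ± 14.6 CPM in wild type (SD, n = 3 each), and gna-2, whose product makes the precursor of eggshell chitin, was 1.55-fold higher. By contrast perm-4, a protein of the eggshell permeability barrier, was at 1159.4, 1358.3 and 1503.1 CPM in fog-2(lf) and at 2224.8, 2260.1 and 1975.5 CPM in wild type (log2 fold change -0.68, adjusted p = 0.0105; -0.50 on the first day). The groups did not overlap for either gene. The count of 14 became 4, 7 and 7 without fog-2(lf) replicates 1, 2 and 3, 4, 3 and 9 without wild-type replicates 1, 2 and 3, 3 with library totals and 1 on TPM values, while the lower count was 2 to 5.

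Of 50 genes of germ granules and small RNA pathways 14 were higher and 2 lower, the microRNA Argonautes alg-1 and alg-2, but library totals and TPM values each gave none higher and 3 lower. The higher count was 7 without fog-2(lf) replicate 1 or 2 and 5 and 4 without wild-type replicates 1 and 2. The call of alg-1 was lost without fog-2(lf) replicate 1 or wild-type replicate 2 or 3 (adjusted p up to 0.16). Of 22 genes of germline sex determination and proliferation, fem-3 and fem-2 were higher (fem-2 at 0.17, but at -0.06 on TPM values, and with an adjusted p of up to 0.243 with a library left out) and fog-3, named after its value was seen, lower. The call of fog-3 was lost without any 1 of the 6 sixth-day libraries (adjusted p up to 0.183). fem-3, which drives the male fate in the germline, was at 110.5, 106.3 and 108.2 CPM in fog-2(lf) and at 67.5, 68.4 and 82.4 CPM in wild type (log2 fold change 0.57, adjusted p = 0.0191; 0.54 on the first day), above wild type in every library. Among 65 histone genes 7 were higher (10.8%, against 9.86% of all genes) and 9 lower (13.8%, against 10.5%). The higher count was 3 or 4 without any 1 of the 6 sixth-day libraries, with 5 to 9 lower. It was 1, with 13 and 16 lower, with library totals and on TPM values, and 4, with 16 lower, with the length offset. hil-5, a linker histone, was at 521.9, 500.6 and 498.9 CPM in fog-2(lf) and at 329.2, 333.0 and 390.4 CPM in wild type (log2 fold change 0.53, adjusted p = 0.0132). On TPM values htp-3, brc-2, cdc-6, air-2, oma-2, puf-5, fem-3 and hil-5 were not called.

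Markers of cells that could be carried over were low or alike. The 31 major sperm protein genes were each under 1 CPM in all 6 libraries and summed to 2.07, 1.41 and 1.26 CPM in fog-2(lf) and to 4.91, 0.87 and 3.88 CPM in wild type. Of the 13 tested none was called on the sixth day by edgeR or DESeq2 (0 also at an unadjusted p under 0.05), and of 38 other sperm genes 1, spe-29, was lower, a call lost without fog-2(lf) replicate 1 or 3 or wild-type replicate 2. Male soma markers summed to 5.91 to 7.33 CPM in fog-2(lf) and to 6.63 to 7.44 CPM in wild type. Of the 6 tested, lov-1, a polycystin of male sensory neurons, and cil-7, a myristoylated protein of the same ciliated cells, were lower, with wild-type means of 0.312 and 0.51 CPM. Genes of the early zygotic embryo summed to 86.6 to 104.2 CPM in fog-2(lf) and to 102.5 to 130.2 CPM in wild type, with 2 of 19 lower (sdz-27 and elt-3) and none higher. The call of sdz-27 was lost without fog-2(lf) or wild-type replicate 1 or 2.

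The larval list did differ. Genes of moulting and larval cuticle summed to 80.9, 135.1 and 90.1 CPM in fog-2(lf) and to 198.8, 292.9 and 145.4 CPM in wild type, without overlap, and 2 of its 22 genes were under 1 CPM in all 6 libraries. Of 21 tested, 7 were lower and 1 higher (median -1.05), with none lower without fog-2(lf) replicate 1 or without wild-type replicate 2, 3 without fog-2(lf) replicate 3 and 4 without wild-type replicate 1. noah-1, a zona pellucida domain protein of the apical matrix under the new cuticle, was at 12.6, 26 and 19.3 CPM in fog-2(lf) and at 40.3, 61.3 and 29.9 CPM in wild type (log2 fold change -1.18, adjusted p = 0.0336, highest with a library left out 0.14). These genes are used by larvae when they moult. The part of larval RNA in the differences of somatic genes below was not tested.

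Of the lists examined, the cytosolic ribosome had the largest share of higher genes. Of 78 tested ribosomal protein genes 69 were higher in sixth-day fog-2(lf), 88.5% against 9.86% of all genes, and none was lower (median 0.47). On the first day none was higher and 7 were lower, and 72 had a positive called interaction against 7.38% of all genes. The list median stood at 0.52, 0.50 and 0.36 in the fog-2(lf) libraries and at 0.09, 0.00 and -0.08 in the wild-type libraries, relative to the wild-type mean. rpl-39 was at 482.3, 393.2 and 378.4 CPM in fog-2(lf) and at 222.8, 214.3 and 172.8 CPM in wild type, a 2.06-fold difference (log2 fold change 1.04, SE 0.15, adjusted p = 0.00474). rpl-43 was at 733.6, 635.1 and 636.6 CPM against 415.0, 375.3 and 360.4 CPM (log2 fold change 0.80, adjusted p = 0.00292). Neither gene overlapped between the genotypes. The count was 39, with 1 lower, both with library totals and with the length offset, 34 with 2 lower on TPM values, and 47 to 65 with each sixth-day library left out.

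Translation factors, respiratory subunits and proteasome subunits had smaller shares. Of 61 translation factors and tRNA synthetases 8 were higher (13.1%, against 9.86% of all genes) and 1, eef-1A.2, was lower. Of all genes at 100 CPM or more 23.3% were higher, and the list was not matched for level. The call of eef-1A.2 was lost without fog-2(lf) replicate 1 or wild-type replicate 2 (adjusted p up to 0.133). With library totals or TPM values none of the 61 was higher and 5 or 12 were lower. The higher count was 5 without fog-2(lf) replicate 1 or 2 or any wild-type replicate. eef-1G, a subunit of the elongation factor complex, averaged 2024.4 ± 163.4 CPM in fog-2(lf) and 1543.3 ± 24.7 CPM in wild type (SD, n = 3 each; adjusted p = 0.0206, 0.118 with library totals). Among 70 nuclear-encoded subunits of respiratory complexes and ATP synthase, 25 were higher and none lower (median 0.20), against none higher and 7 lower on the first day. cox-6A, a subunit of cytochrome c oxidase, was at 198.3, 178.7 and 171.1 CPM in fog-2(lf) and at 131.3, 116.2 and 114.9 CPM in wild type (log2 fold change 0.60, adjusted p = 0.00836), and ndua-7, a complex I subunit, rose 1.42-fold. The respiratory count was 10 and 16 without fog-2(lf) replicates 1 and 2, 11 and 13 without wild-type replicates 2 and 3, and 9 with library totals, while TPM values gave 5 higher and 5 lower. Of 33 proteasome genes 11 were higher and none lower, with 4 and 6 without fog-2(lf) replicates 1 and 2, 7 without wild-type replicate 1, 5 without wild-type replicate 2 or 3, and none with library totals or on TPM values, where 2 were lower.

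**Figure D4:**
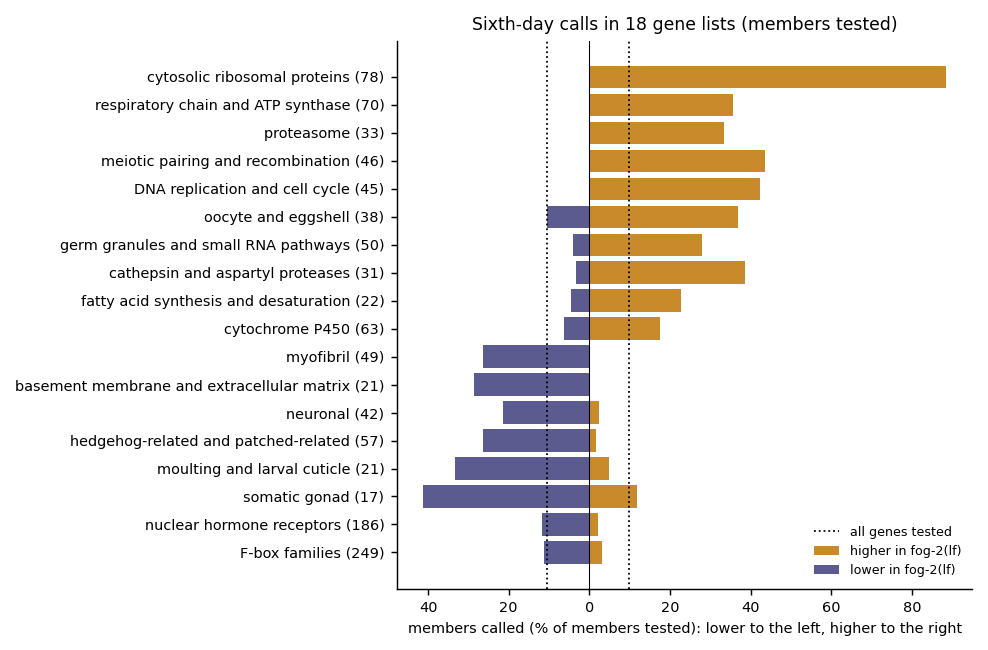
Percent of tested members called higher (right) or lower (left) in sixth-day fog-2(lf) for 18 gene lists, with the number tested in brackets and dotted lines at 9.86% and 10.5%, the shares of all genes. Ribosomal proteins reach 88.5% higher, and the muscle, matrix and larval lists lie to the left.

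The vitellogenins are yolk proteins made in the intestine and taken up by oocytes. All 6 had a positive called interaction. On the sixth day 2 of 6, vit-1 and vit-4, were higher (median 1.29), and on the first day 4 of 6, vit-1, vit-2, vit-5 and vit-6, were lower, so that vit-1 alone was called in opposite directions. vit-1 was at 376.0, 259.3 and 153.9 CPM in fog-2(lf) and at 27.6, 114.3 and 83.7 CPM in wild type (log2 fold change 1.81, SE 0.46, adjusted p = 0.0292). vit-4 was at 1432.9, 531.5 and 313.3 CPM in fog-2(lf) and at 38.6, 288.9 and 172.4 CPM in wild type (log2 fold change 2.19, adjusted p = 0.0569). The libraries did not overlap, which the naming rule required of vit-4, but they spread widely. Without fog-2(lf) replicate 1, the highest, neither was called (adjusted p up to 0.119 for vit-1 and 0.251 for vit-4). Without wild-type replicate 1 or 3 vit-4 was not called. The members vit-2, vit-3, vit-5 and vit-6, named after their values were seen, had log2 fold changes of 0.42, 1.61, 0.97 and 0.70 and were not called.

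Of 31 cathepsin and aspartyl proteases, which digest bacterial protein in the gut lumen and lysosomes, 12 were higher and 1 lower (median 0.69). On the first day 1 was higher and 15 lower, and 17 had a positive called interaction. asp-17, an aspartyl protease, was at 35.6, 30.7 and 16.9 CPM in fog-2(lf) and at 7.45, 4.22 and 6.02 CPM in wild type, a 4.7-fold difference (log2 fold change 2.23, SE 0.31, adjusted p = 0.00431). asp-13 rose 3.07-fold and ctsa-1.2, a lysosomal carboxypeptidase, 3.0-fold. cpr-1, a cathepsin B-like protease, was at 841.5, 567.6 and 234.6 CPM in fog-2(lf) and at 85.6, 119.3 and 47.4 CPM in wild type (log2 fold change 2.70, adjusted p = 0.0383, highest with a library left out 0.14). Replicate 1 was the highest fog-2(lf) library for all 4 of these proteases, and without it the count was 5. It was 8 without fog-2(lf) replicate 2 or wild-type replicate 1 and 7 without wild-type replicate 3.

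Of 22 genes of fatty acid synthesis and desaturation 5 were higher (elo-1, elo-2, elo-5, elo-6 and fat-1) and fat-7, a delta-9 desaturase named after its value was seen, was lower (median 0.27; 2 higher without fog-2(lf) replicate 1, fog-2(lf) replicate 2 or wild-type replicate 1, and 3 without wild-type replicate 2 or 3). The calls of elo-5, elo-6, fat-1 and fat-7 were lost in some of these fits (adjusted p up to 0.115, 0.149, 0.201 and 0.127). elo-2, which elongates palmitate, was at 28, 41.9 and 24 CPM in fog-2(lf) and at 7.51, 11.8 and 13.2 CPM in wild type (log2 fold change 1.53, adjusted p = 0.0198). asm-2, an acid sphingomyelinase, was at 24.4, 17.8 and 9.69 CPM in fog-2(lf) and at 4.14, 6.35 and 2.48 CPM in wild type (log2 fold change 2.0, adjusted p = 0.0152). Both genes lay above wild type in every mutant library, which the naming rule required of asm-2. Against 9.86% higher and 10.5% lower over all genes, fatty acid activation and beta-oxidation genes had 4 of 52 higher (7.69%) and 5 lower (9.62%). Lysosomal lipases and lipid-binding proteins had 1 of 20 higher and 3 lower. With a sixth-day library left out these counts were 2 to 5 higher and 1 to 3 lower for the first list and 0 to 2 higher and 1 or 2 lower for the second. acs-1, an acyl-CoA synthetase of branched-chain fatty acids, rose 2.36-fold and acs-5 1.65-fold. Of 10 genes of ascaroside synthesis 2 were higher, acox-1.2 and acox-1.4, the second 3.42-fold.

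Of 63 cytochrome P450 genes 11 were higher (17.5%, against 9.86% of all genes) and 4 lower (6.35%, against 10.5%), with a median of 0.38. On the first day 3 were higher and 13 lower. cyp-35C1 averaged 25.3 ± 15.4 CPM in fog-2(lf) and 5.4 ± 2.29 CPM in wild type, and cyp-25A1 28.8 ± 3.58 against 7.29 ± 0.997 CPM (SD, n = 3 each). Of 62 UDP-glucuronosyltransferases 10 were higher (16.1%) and 5 lower (8.06%), and ugt-63 rose 3.76-fold. The P450 count was 4 without fog-2(lf) replicate 1, 6 without wild-type replicate 2 and 5 without wild-type replicate 3. Of 42 short-chain and aldehyde dehydrogenases 7 were higher (16.7%, against 9.86% of all genes) and 5 lower (11.9%, against 10.5%), with 3 to 8 higher and 1 to 3 lower when a sixth-day library was left out. Glutathione S-transferases had 2 of 40 higher (5%) and 2 lower (5%). DAF-16-responsive and stress defence genes had 4 of 45 higher (8.89%) and 1 lower (2.22%). Each of these shares was under that of all genes. The 2 lists had 0 to 2 and 1 to 4 higher when a sixth-day library was left out.

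Immune effectors were called in both directions. Of 76 antimicrobial effectors (lysozymes, saposin-like proteins and thaumatins among them) 11 were higher (14.5%, against 9.86% of all genes) and 6 lower (7.89%, against 10.5%). Of 96 C-type lectins 9 were higher (9.38%) and 7 lower (7.29%), at or under the shares of all genes. The lectin count was 3 to 6 higher without fog-2(lf) replicate 1 or 2 or any wild-type replicate. clec-1 was at 137.4, 123.9 and 91.8 CPM in fog-2(lf) and at 32.8, 42.2 and 49.3 CPM in wild type (log2 fold change 1.51, adjusted p = 0.0115), with no overlap. spp-9, a saposin-like protein, was at 426.6, 111.4 and 82.7 CPM in fog-2(lf) and at 8.93, 13.6 and 59.7 CPM in wild type (log2 fold change 2.91, adjusted p = 0.0324, highest with a library left out 0.17). The antimicrobial count was 2 higher and 1 lower without fog-2(lf) replicate 1, 4 higher without fog-2(lf) replicate 2, and 7, 4 and 5 higher without wild-type replicates 1, 2 and 3. nas-20, an astacin metalloprotease, was at 68.1, 65.9 and 48.8 CPM in fog-2(lf) and at 17.2, 16 and 10.9 CPM in wild type (log2 fold change 2.05, SE 0.24, adjusted p = 0.0019). Its libraries did not overlap, which the naming rule required. Of 27 genes of its family 5 were lower (2 to 4 with a sixth-day library left out, 12 on TPM values) and 2 higher.

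**Figure D5:**
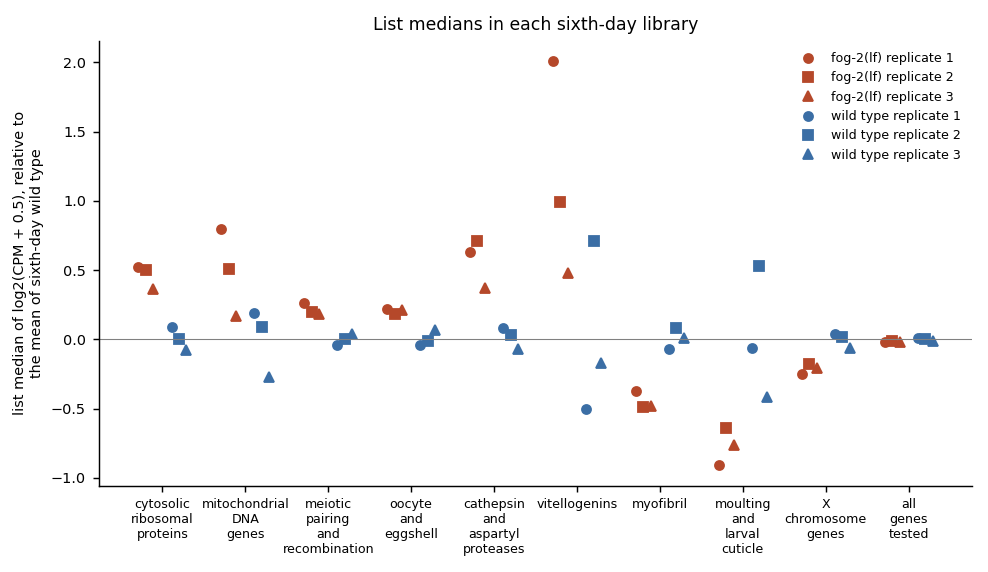
Median of each list in each sixth-day library, as log2(CPM + 0.5) relative to the mean of sixth-day wild type (fog-2(lf) red, wild type blue, marker shape for the replicate). Ribosomal proteins (0.36 to 0.52 in fog-2(lf)) and meiosis genes lie above wild type, myofibril and X-linked genes below, and the vitellogenin points spread widest, with fog-2(lf) replicate 1 at 2.01.

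Of 49 myofibril genes 13 were lower and none higher in sixth-day fog-2(lf) (median -0.46), after 9 higher and none lower on the first day, and 20 had a negative called interaction against 7.96% of all genes. The list median was at -0.37, -0.49 and -0.48 in the fog-2(lf) libraries and at -0.07, 0.08 and 0.01 in the wild-type libraries, relative to the wild-type mean. act-4, a muscle actin on the X chromosome, was at 284.3, 288.2 and 288.5 CPM in fog-2(lf) and at 484.0, 594.1 and 536.3 CPM in wild type (log2 fold change -0.91, SE 0.14, adjusted p = 0.00526). unc-97, a LIM-domain protein of muscle attachments that is also X-linked, was at 14.9, 14.3 and 12.9 CPM in fog-2(lf) and at 23.6, 24.4 and 20.6 CPM in wild type (log2 fold change -0.70, adjusted p = 0.0132). Both were lower in every mutant library, and 6 of the 13 lower genes lay on X, where 13 of the 49 are. The count was 4, 4 and 7 without fog-2(lf) replicates 1, 2 and 3 and 3 and 5 without wild-type replicates 2 and 3, and it was 19 with library totals, 30 on TPM values and 29 with the sixth-day libraries alone.

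Of 21 genes of basement membrane and extracellular matrix 6 were lower and none higher (median -0.43), with none without fog-2(lf) replicate 1, 1 without wild-type replicate 2 and 3 without wild-type replicate 1, but 9 on TPM values and 14 with the sixth-day libraries alone. Of 42 neuronal genes 9 were lower and 1, tdc-1, which makes tyramine, was higher (median -0.36). The lower count was 3 without fog-2(lf) replicate 1 or wild-type replicate 2, 5 without fog-2(lf) replicate 2 or 3 and 4 without wild-type replicate 3. It was 15 with library totals and 18 on TPM values. The call of tdc-1 was lost with some sixth-day libraries left out (adjusted p up to 0.182) and with library totals (0.42). unc-33, a collapsin response mediator protein that guides axons, was at 48.5, 60.1 and 56.5 CPM in fog-2(lf) and at 77.2, 99.2 and 91.7 CPM in wild type (log2 fold change -0.70, adjusted p = 0.0155), with no overlap. Peptide genes showed few sixth-day calls. Of 30 FMRFamide-like peptide genes 1 was lower (3.33%), and of 66 neuropeptide-like protein genes 2 were higher (3.03%) and 4 lower (6.06%). Of 23 insulin-like peptide genes 3 were lower (13%, against 10.5% of all genes). The neuropeptide-like lower count was 1 without replicate 1 or 2 of either genotype, and the insulin-like count was 0 without replicate 2 of either genotype. On TPM values 5, 13 and 9 of the 3 lists were lower. On the first day 10, 21 and 2 of the 3 lists were higher in fog-2(lf). The larval sums given above were higher in wild type as well.

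Of 57 hedgehog-related and patched-related genes, many of them used by the epidermis as it moults, 15 were lower and 1 higher (median -0.42; 7 and 9 lower without fog-2(lf) replicates 1 and 2, 5 and 10 without wild-type replicates 2 and 3). ptr-25, a patched-related membrane protein, was at 0.856, 0.961 and 1.04 CPM in fog-2(lf) and at 4.85, 7.18 and 3.64 CPM in wild type (log2 fold change -2.45, SE 0.32, adjusted p = 0.00324). ptr-4, of the same family and X-linked, was at 1.28, 1.07 and 1.31 CPM in fog-2(lf) and at 6.64, 13 and 4.98 CPM in wild type (log2 fold change -2.74, adjusted p = 0.00836). The wild-type libraries ranked alike for both genes and for the larval sum, with replicate 2 highest and replicate 3 lowest. The fog-2(lf) libraries did not rank alike. Their replicate 2 was highest for the larval sum (135.1 CPM) but lowest for ptr-4, and their replicate 3 was highest for ptr-25. A link of these genes with larval RNA was not tested. Cuticle collagens had 11 of 120 higher (9.17%) and 15 lower (12.5%), and of 46 transthyretin-related genes 5 were lower (10.9%). These shares were near those of all genes, 9.86% higher and 10.5% lower. The collagen higher count was 1 without fog-2(lf) replicate 1 or wild-type replicate 3 and 5 without wild-type replicate 1 or 2. Its lower count was 7 without fog-2(lf) replicate 1, 3 without wild-type replicate 2 and 24 on TPM values. The transthyretin count was 1 without fog-2(lf) replicate 1 or 2, 2 without wild-type replicate 1 or 2 and 3 without wild-type replicate 3, but 14 on TPM values, 11 with the length offset and 15 with the sixth-day libraries alone.

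Large regulatory families showed lower calls near the 10.5% background and few higher ones. Of 186 nuclear hormone receptors 22 were lower and 4 higher (median -0.21), and of 249 F-box genes 28 were lower and 8 higher (median -0.24). With a sixth-day library left out the lower counts were 7 to 16 and 8 to 19, the lowest without fog-2(lf) replicate 1, while library totals gave 34 and 38 and TPM values 53 and 62. daf-12, the receptor of the steroid hormone dafachronic acid, was at 7.95, 8.82 and 8.89 CPM in fog-2(lf) and at 12.7, 16.6 and 16.8 CPM in wild type (log2 fold change -0.84, SE 0.16, adjusted p = 0.0107). Of 63 heat shock and chaperone genes 13 were lower (20.6%, against 10.5% of all genes) and 5 higher (7.94%, against 9.86%), with a median of -0.02. The 13 include both copies of hsp-16.48, whose values are identical, so they are not 13 separate signals. hsp-16.2, a small heat shock protein, was at 13.4, 5.17 and 13.9 CPM in fog-2(lf) and at 40.6, 99.9 and 99.5 CPM in wild type (log2 fold change -2.89, adjusted p = 0.0599, highest with a library left out 0.179). The lower count was 1, 0 and 5 without fog-2(lf) replicates 1, 2 and 3 and 2 and 5 without wild-type replicates 2 and 3. The family's near-identical copies hsp-16.1 and hsp-16.48 could share reads and are not given.

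The somatic gonad, which wraps and ovulates the oocytes, had 7 of 17 genes lower and 2 higher (median -0.42), while its summed level was alike, at 1049.1, 1079.3 and 1072.5 CPM in fog-2(lf) and at 1015.2, 1146.1 and 1151.8 CPM in wild type. inx-8 and inx-9 encode gap junction innexins of the sheath that couple it to germ cells. inx-9 was at 38.4, 35.2 and 41.1 CPM in fog-2(lf) and at 57.9, 65.8 and 67.1 CPM in wild type (log2 fold change -0.73, SE 0.13, adjusted p = 0.00836), and inx-8 at 77.1, 72.4 and 70.4 against 106.3, 91.3 and 94.1 CPM (log2 fold change -0.41, adjusted p = 0.0232; -0.49 on the first day). Both genes were below wild type in every mutant library. The lower count was 2 without fog-2(lf) replicate 1, 4 without fog-2(lf) replicate 2 or 3, 3 without wild-type replicate 2 and 4 without wild-type replicate 3.

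Among genes of at least 10 CPM whose libraries did not overlap, lips-11, C09G5.7 and K09F6.13 had the next largest falls after fog-2, unc-103 and small heat shock genes. lips-11, a lipase-related gene, was at 1.03, 4.01 and 5.72 CPM in fog-2(lf) and at 25.7, 22.9 and 29.7 CPM in wild type (log2 fold change -2.85, SE 0.50, adjusted p = 0.0087). K09F6.13 was at 2.53, 3.08 and 4.14 CPM in fog-2(lf) and at 16, 25.1 and 24.2 CPM in wild type (log2 fold change -2.74, adjusted p = 0.00475). lips-11 and K09F6.13 were at most 1.78 CPM in every first-day library. C09G5.7 and the X-linked tag-278 fell as well, 7.14-fold and 4.44-fold.

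The study picked 2 lists from these libraries, so their direction is not independent evidence. Of its 6 transcription factors of the hermaphrodite-specific neuron, ceh-20, a Pbx-type homeodomain protein, was higher at 46.8, 49.6 and 48.7 CPM in fog-2(lf) against 33.5, 33.4 and 37.4 CPM in wild type (log2 fold change 0.48, adjusted p = 0.0163), and egl-46 was lower. The first-day difference of ceh-20 was larger, at 1.31 on the log2 scale. Of its 14 G-protein coupled receptor binding genes mom-2, a Wnt ligand, was higher and dsh-1, a Dishevelled protein, lower, by 0.25 and -0.29 on the log2 scale. Both calls were lost with some sixth-day libraries left out (adjusted p up to 0.157 and 0.283), and that of mom-2 with library totals (0.476). On the first day 9 of the 14 were higher and 4 lower.

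Y39E4B.6 had 1777.8 CPM in fog-2(lf) replicate 1, against 15 and 11 CPM in the other fog-2(lf) libraries and 17, 14 and 14 CPM in wild type. Its call (log2 fold change 5.33, adjusted p = 0.0472) rested on that library, and without it the value was -0.18 (adjusted p = 0.796). Nearly all of the excess was assigned to isoform b, with 49834 estimated counts in that library and 352 or fewer in each other sixth-day library.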

How the data were processed

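The series holds 12 libraries, 3 for each genotype and day, grouped by strain and life stage as labelled. The authors pseudoaligned the reads with kallisto in single-end mode against WBcel235 transcripts and modelled age, genotype and their interaction with sleuth, as the submitters' processing notes and the study's methods state; no version is given in the sources used here. The deposited tables give estimated counts and TPM for 32905 isoforms, and these were read from separate tables of each library. Totals ran from 21162593 to 38775999 estimated counts per library. Columns of per-sample values left unused numbered 0.

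Estimated counts were rounded after summing over the isoforms of each of 22037 genes (307 isoforms had no gene in the Ensembl 115 annotation, which also gave coordinates). edgeR 4.0.16 (R 4.3.3; filterByExpr, TMM) was fitted to all 12 libraries with 4 groups, which share 1 estimate of the spread, and p-values were Benjamini-Hochberg adjusted over 14561 genes, with calls under 0.1. The contrasts were fog-2(lf) minus wild type on each day and their difference. The kit does not mark strand, so overlapping genes on opposite strands could share reads; of the genes named, besides the pairs given in the text, elo-5, perm-2, spe-29, tdc-1, brc-2, rpl-39, eef-1G, act-4, tag-278, ugt-25, acs-1, acox-1.4, ctsa-1.2, inx-9, lov-1 and vit-2 overlap such a gene. Scripts were tested on simulated data.

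The libraries compared, the 44 gene lists and the tests were chosen with earlier results of these data known, and nothing reported here is independent of that. Genes were named by rule: fog-2 and ftr-1; the 15 largest rises and 15 largest falls at a mean of at least 10 CPM without overlap of libraries; up to 5 called members of each list; the 10 largest differences shared by both days and the 10 largest interactions; called genes within 0.5 Mb of fog-2; and the marker and study lists. Of these, the text gives those needed to describe each group. Lists are described by counts and medians, with no set test. Alternatives were DESeq2 1.42.0, other scalings and filters, limma 3.58.1 on log2(TPM + 0.5) and with offsets of 0.1 and 1, the 6 sixth-day libraries alone, a replicate block, isoforms, a stricter threshold, each library left out and a transcript length offset. Estimated counts after pseudoalignment carry assignment error that the replicates reflect only in part.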

Additional observations from a re-analysis of the deposited data

Results flagged for a closer look

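For 52 of the 87 genes named in the report, the genotype difference itself changed between the days (interaction, edgeR's quasi-likelihood test, Benjamini-Hochberg adjusted p under 0.1). Over all tested genes the share was 15.3%. The named genes were picked partly for large interactions or large sixth-day differences, so a higher share was built into that choice. Interaction calls of single genes were not checked with libraries left out. Values are the sixth-day log2 fold change of fog-2(lf) over wild type minus the first-day one, so a positive value means a difference more in favour of fog-2(lf) on the sixth day.

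The value was positive for 32 genes. All 6 vitellogenins were among them, with 3.17 for vit-1, 1.96 for vit-2, 3.02 for vit-3, 3.1 for vit-4, 2.18 for vit-5 and 1.88 for vit-6. Among proteases the value was 3.68 for cpr-1, 2.4 for asp-17, 2.25 for ctsa-1.2 and 2.75 for nas-20. Among lipid genes it was 3.36 for asm-2, 2.42 for elo-2, 1.96 for elo-5, 1.75 for fat-1, 0.76 for elo-1 and 1.11 for acs-5. It was 2.7 for cyp-35C1, 1.89 for cyp-25A1, 2.36 for ugt-25 and 1.64 for clec-1. In the machinery of translation and respiration it was 0.84 for rpl-39, 0.72 for rpl-43, 0.47 for eef-1G, 0.58 for cox-6A and 0.33 for ndua-7. Germline genes had smaller values, with 0.36 for htp-3, 0.39 for brc-2, 0.53 for orc-5, 0.33 for puf-5 and 0.43 for hil-5. The paralogue ftr-1 had 0.58. Y39E4B.6 had 5.91, which rested on fog-2(lf) replicate 1 of the sixth day.

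The value was negative for 20 genes. fog-2 itself had -0.57. Muscle and nerve genes had -0.94 (act-4), -1.06 (unc-97), -0.7 (unc-33), -3.58 (flp-25) and -1.66 (egl-46). Epidermal and larval genes had -2.32 (ptr-4), -3.11 (ptr-25) and -1.68 (noah-1). Regulators had -0.74 (daf-12), -0.83 (ceh-20), -0.79 (dsh-1), -0.78 (alg-1) and -0.81 (alg-2). The male soma markers lov-1 and cil-7 had -5.5 and -4.33; both were at or under 0.548 CPM in every library, and a fitted value of such a gene depends on the prior count and is no bound. The value was -3.01 for fat-7, -2.74 for pqn-74, -2.81 for K09F6.13 and -1.98 for tag-278.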

How the results depend on the processing

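The sixth-day count of 2967 became 4726 with the 6 sixth-day libraries alone, 1731 at an adjusted p under 0.05 and 1396 with isoforms in place of gene sums. The first-day count of 2671 became 1492 at 0.05 and 1550 with isoforms. The 2233 interaction genes became 3791, 3627 and 3809 with limma on log2(TPM + 0.5), (TPM + 0.1) and (TPM + 1), 1080 at 0.05 and 855 with isoforms. The 434 genes shared by both days became 173 at 0.05 and 181 with isoforms. Of all gene lists together 520 genes were called, and 796 with the sixth-day libraries alone and 319 at 0.05. The 395 lower X-linked genes became 763, 750 and 763 on the 3 TPM scales, 612 with the sixth-day libraries alone and 235 at 0.05. With each of the 12 libraries left out in turn the ranges were 1107 to 4221 for the sixth day, 1156 to 3672 for the first day, 1027 to 3321 for the interaction, 155 to 810 for both days, 208 to 737 for list genes and 147 to 551 for X; the highest of each was without first-day wild-type replicate 2. With library totals alone the first-day split was 2528 higher and 1067 lower (1126 and 1545 with trimmed-mean scaling) and the interaction split 412 positive and 2781 negative (1074 and 1159). Y39E4B.6 was at -0.18 without fog-2(lf) replicate 1 (5.33 with all libraries; the other left-out fits reached 5.9), and fem-2 at -0.06 on all 3 TPM scales. The cause of these shifts was not tested.

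A replicate block gave 3093, 2584, 2190, 477, 524 and 400 for the sixth day, the first day, the interaction, both days, the lists and X, and ended the calls of Y39E4B.6, dsh-1 and vit-4; replicate numbers did not pair the samples (correlations of same-numbered libraries -0.14 to 0.16). On TPM values elo-1, fat-1, eef-1G, ceh-20, ftr-1, mom-2, tdc-1, lov-1 and Y39E4B.6 lost their call besides the germline genes given in the report. Of 90 counts over single lists (higher or lower), 45 moved by over 1.5 times with the sixth-day libraries alone, 34 with library totals and 56 on log2(TPM + 0.5). With DESeq2 the sixth-day count was 3498, and of 86 named genes it tested none lost its call.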
